A study of Equus caballus with 18 samples.

Results

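MYH1, MYH7 and MYBPC2 were described across 18 skeletal muscles of 1 horse. The genes were chosen by name, and they are 3 of the 25239 genes in the count table, where MYH1 is ENSECAG00000022909, MYH7 is ENSECAG00000019844 and MYBPC2 is ENSECAG00000020407. All 3 passed the filter on low counts. RNA came from a male Jeju horse, a Korean pony breed. Every muscle gave 1 library except the biceps femoris, which gave 3, from its vertebral, middle and caudal parts, and each of these parts is counted as a muscle below. Muscle samples were frozen in liquid nitrogen at slaughter, and the labels name no treatment.

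The tissue labels name the muscles only, and from these names the muscles were sorted into 6 anatomical groups. The proximal forelimb group held the long head of the triceps brachii, the biceps brachii, the infraspinatus and the supraspinatus. The girdle and neck group held the rhomboideus, omohyoideus, trapezius and pectoralis major. The extensor digitorum communis and extensor carpi radialis were the forelimb extensors, and the extensor digitorum longus and lateralis were the hindlimb extensors. The proximal hindlimb group held the semitendinosus, the gluteus superficialis and the vertebral, middle and caudal parts of the biceps femoris. The longissimus thoracis and lumborum was the only trunk muscle. Muscles of a group stood in as replicates. Any p-value therefore measures the spread between muscles of this 1 animal and not between horses.

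Thick filaments of the sarcomere are bundles of myosin, and the heavy chain carries the motor head that pulls on actin. MYH1 encodes the fast heavy chain of type IIx fibres, and MYH7 encodes the slow heavy chain of type I fibres, which is also the beta heavy chain of the heart. MYBPC2 encodes the fast isoform of myosin binding protein C, which binds along the thick filament and tunes the interaction of the myosin heads with actin. In bulk muscle RNA, fewer fibres of a type and less RNA per fibre cannot be told apart.

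Among the protein-coding genes and pseudogenes that RefSeq annotates on the assembly TB-T2T, MYH1 lies in a row of skeletal myosin genes, between MYH4, annotated there as a transcribed pseudogene, and MYH2. MYH7 lies next to MYH6, the alpha heavy chain gene of the heart. MYBPC2 lies between SPIB and GARIN5A, neither of which is a thick filament gene. The myosin genes are close in sequence to their neighbours, and how reads shared between copies were counted is not given in the sources used here. This leaves an uncertainty in the level of either heavy chain.

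Libraries held between 31395013 and 50508515 counts on genes, with a median of 37913516.5. Levels are given in CPM, the counts per 1000000 after TMM scaling, a normalization that evens out differences in library composition. TMM factors lay between 0.81 and 1.44. By rank of counts within a library, MYH7 stood between places 4 and 64, MYH1 between 5 and 312, and MYBPC2 between 24 and 93. All 3 genes were thus abundant in muscles of every group. Other marker genes of skeletal muscle were not checked, because the identifiers did not match the RefSeq annotation.

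MYH1 varied most of the 3 genes, 214-fold between the lowest and the highest muscle. Its median over the 18 muscles was 8199 CPM. The highest level stood in the extensor carpi radialis with 28709 CPM, followed by the semitendinosus with 16961 CPM, the longissimus with 15144 CPM and the supraspinatus with 14032 CPM. The biceps femoris came next, with 12223 CPM in the vertebral, 11765 CPM in the caudal and 10947 CPM in the middle part. The 3 parts of this large hindlimb muscle were thus nearly level in MYH1. The pectoralis major had 10131 CPM, the triceps 9647 CPM, the infraspinatus 6752 CPM and the biceps brachii 4658 CPM. The gluteus superficialis had 2565 CPM and the extensor digitorum longus 2332 CPM.

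Below these 13 muscles came the widest step in the order of MYH1, 4.84-fold. MYH1 fell there to 481 CPM in the extensor digitorum lateralis, 301 CPM in the extensor digitorum communis and 291 CPM in the omohyoideus. The trapezius had 165 CPM and the rhomboideus 134 CPM. These 5 muscles were 3 of the 4 girdle and neck muscles and 2 of the 4 extensors, and no proximal limb muscle was among them. Even in the rhomboideus MYH1 had 4880 counts, so that its exact 95% Poisson interval was 130.2 to 137.8 CPM. Such intervals hold the counting error within a library and nothing else. Duplicates of a molecule could not be recognised without molecular identifiers, so the intervals may be too narrow even for counting error.

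MYH7 varied 29.8-fold, with a median of 8946 CPM. It was highest in the trapezius with 26283.5 CPM and the rhomboideus with 25655 CPM, the muscles with the least MYH1. The extensor digitorum communis followed with 15287 CPM, the extensor digitorum lateralis with 12924 CPM, the infraspinatus with 12649.8 CPM, the supraspinatus with 11157 CPM and the longissimus with 11062 CPM. The supraspinatus and the longissimus were thus among the highest muscles in both the fast and the slow heavy chain. The pectoralis major had 10340.2 CPM, the caudal and middle biceps femoris 9024 and 8867 CPM, the biceps brachii 8535 CPM and the omohyoideus 8485 CPM. The semitendinosus had 7647 CPM, the triceps 5747 CPM, the extensor digitorum longus 5276 CPM, the gluteus superficialis 3749 CPM and the vertebral biceps femoris 2320.4 CPM. The extensor carpi radialis stood lowest with 881 CPM. The omohyoideus was the exception among the muscles low in MYH1, since its MYH7 lay below the median of all muscles.

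MYBPC2 varied least, 6.67-fold, with a median of 1686 CPM. The caudal biceps femoris had the highest level, 3180.4 CPM, followed by the extensor carpi radialis with 3051 CPM, the longissimus with 2945 CPM, the semitendinosus with 2834 CPM and the supraspinatus with 2533 CPM. The vertebral biceps femoris had 2339 CPM, the triceps 2212 CPM, the infraspinatus 2061 CPM and the middle biceps femoris 1852 CPM. These upper levels were all in limb and trunk muscles. The extensor digitorum longus had 1519 CPM, the gluteus superficialis 1464 CPM, the pectoralis major 1399 CPM and the biceps brachii 1314 CPM. The omohyoideus had 792 CPM, the extensor digitorum lateralis 708 CPM, the extensor digitorum communis 602 CPM, the rhomboideus 543 CPM and the trapezius 477 CPM. The 5 muscles below the step in MYH1 were also the 5 lowest in MYBPC2.

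**Figure D1:**
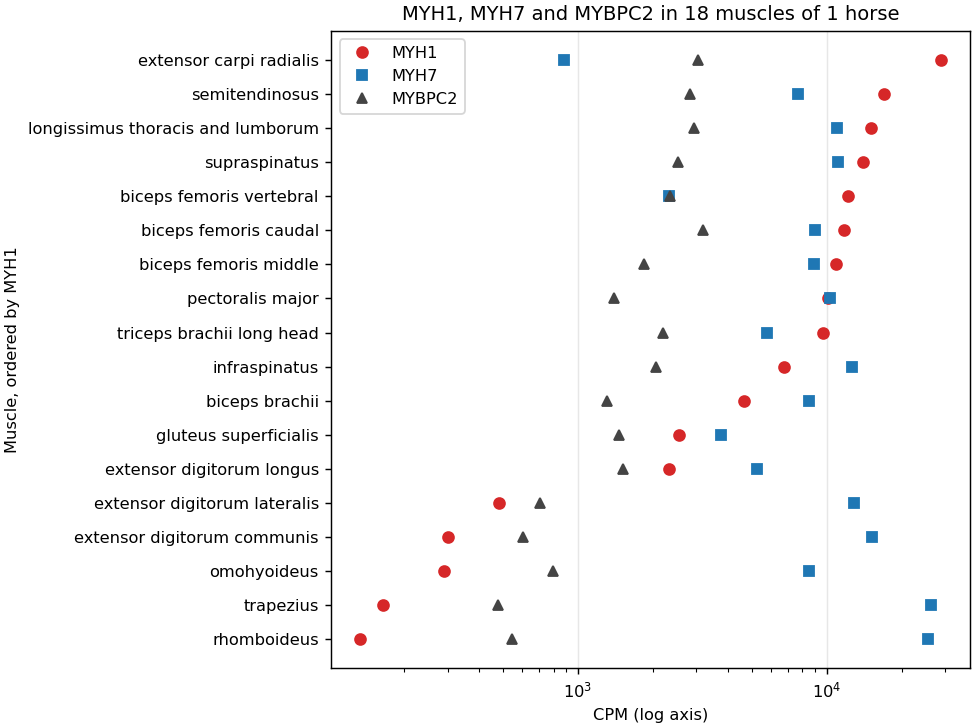
CPM of MYH1 (circles), MYH7 (squares) and MYBPC2 (triangles) on a log axis, with 1 row per muscle in the order of MYH1 and 1 library behind each point. MYH1 runs from 134 CPM in the rhomboideus to 28709 CPM in the extensor carpi radialis, while MYBPC2 stays between 477 and 3180.4 CPM.

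How far neighbours in these orders differ can be set against counting error and against the biceps femoris, the only muscle sampled more than once. By counting error, the exact 95% Poisson intervals of neighbouring muscles overlapped in 1 of 17 steps for MYH1 (omohyoideus and extensor digitorum communis), in 1 of 17 for MYH7 (omohyoideus and biceps brachii) and in none of 17 for MYBPC2. The parts of the biceps femoris differed by more than counting error, 1.12-fold in MYH1, 3.89-fold in MYH7 and 1.72-fold in MYBPC2 between the lowest and the highest part. No step between neighbours in MYH7 or MYBPC2 exceeded the range over these 3 parts. Of the 17 steps in MYH1, 7 lay within it. Steps between 18 sorted values are small by construction, and these counts give only a scale for reading the orders. The top and bottom of each order were farther apart than the 3 parts.

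The spread was wide beside that of other genes. The SD of log2 CPM over the 18 muscles was 2.58 for MYH1, 1.17 for MYH7 and 0.92 for MYBPC2, while the median gene had an SD of 0.34. Of the 10462 genes with an average of at least 1 CPM and counts in every muscle, 1 had a larger SD than MYH1, 107 had a larger SD than MYH7 and 267 had a larger SD than MYBPC2.

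The sum of MYH1 and MYH7 varied less than either heavy chain. Other heavy chain genes, MYH2 among them, were not analysed here, so this sum is not all myosin. It ran from 6314 CPM in the gluteus superficialis to 29589 CPM in the extensor carpi radialis, a 4.69-fold range with a median of 19608 CPM. The extensor carpi radialis, where the sum was nearly all MYH1, and the trapezius, where it was nearly all MYH7, lay close together at the top, with 26448 CPM in the trapezius. The extensor digitorum longus with 7608 CPM and the omohyoideus with 8776 CPM joined the gluteus superficialis at the low end. In these 3 muscles neither heavy chain was high.

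The ratio of MYH1 to MYH7 counts within a library does not depend on the library's total. It was not corrected for transcript length, so a ratio of 1 does not mean equal numbers of molecules, but the length cancels when muscles are compared. The ratio spanned 6243-fold, with a median of 0.832 MYH1 counts per MYH7 count. It was 32.6 in the extensor carpi radialis, 5.27 in the vertebral biceps femoris, 2.22 in the semitendinosus and 1.68 in the triceps. These were the highest ratios.

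The ratio was 1.37 in the longissimus, 1.30 in the caudal biceps femoris, 1.26 in the supraspinatus, 1.23 in the middle biceps femoris and 0.980 in the pectoralis major. It was 0.684 in the gluteus superficialis, 0.546 in the biceps brachii, 0.534 in the infraspinatus and 0.442 in the extensor digitorum longus. The next muscle down was the extensor digitorum lateralis with 0.0373, after a gap of 11.9-fold. The omohyoideus had 0.0342, the extensor digitorum communis 0.0197, the trapezius 0.00626 and the rhomboideus 0.00522. In the rhomboideus 0.519% of the reads of both heavy chains were MYH1 (95% Wilson binomial interval 0.505 to 0.534%), against 97.0% in the extensor carpi radialis (97.0 to 97.1%).

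The biceps femoris gave a measure of variation inside 1 muscle. Its vertebral part had a ratio 4.27-fold above that of its middle part, and this difference lay in MYH7, with 2320.4 against 8867 CPM, more than in MYH1, with 12223 against 10947 CPM. Of the 17 steps between neighbours in the ratio, 15 were within the range of the 3 parts. The gap above the extensor digitorum lateralis and the step between the extensor carpi radialis and the vertebral biceps femoris were wider.

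**Figure D2:**
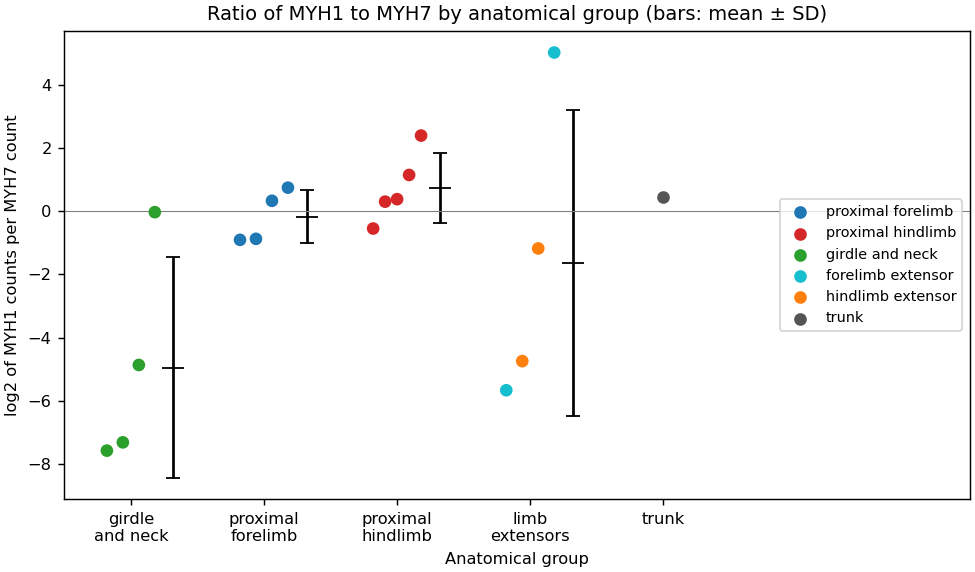
Log2 of the MYH1 counts per MYH7 count (y axis) by anatomical group (x axis), with 1 point per muscle and bars for the mean ± SD of groups with more than 1 muscle. The ratios of the proximal limb muscles lie between 0.534 and 5.27, inside the range of the extensors, which runs from 0.0197 to 32.6.

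MYBPC2 followed MYH1 across the muscles. Over the 18 muscles, Pearson's r of log2 CPM was 0.96 and Spearman's rho was 0.92. These values are descriptions without a p-value, because the points share 1 horse and each pair of values shares a library. A line fitted to log2 CPM had a slope of 0.34, so that MYBPC2 was 2.19-fold higher for each 10-fold increase in MYH1. The line took up 92.1% of the variance of MYBPC2, and muscles lay around it with an SD of 0.27 log2. Part of the range lay in the step in MYH1. Among the 13 muscles above the step r was 0.78 and rho 0.80, with the same slope of 0.34, and the 5 muscles below it were too few for a value of their own.

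**Figure D3:**
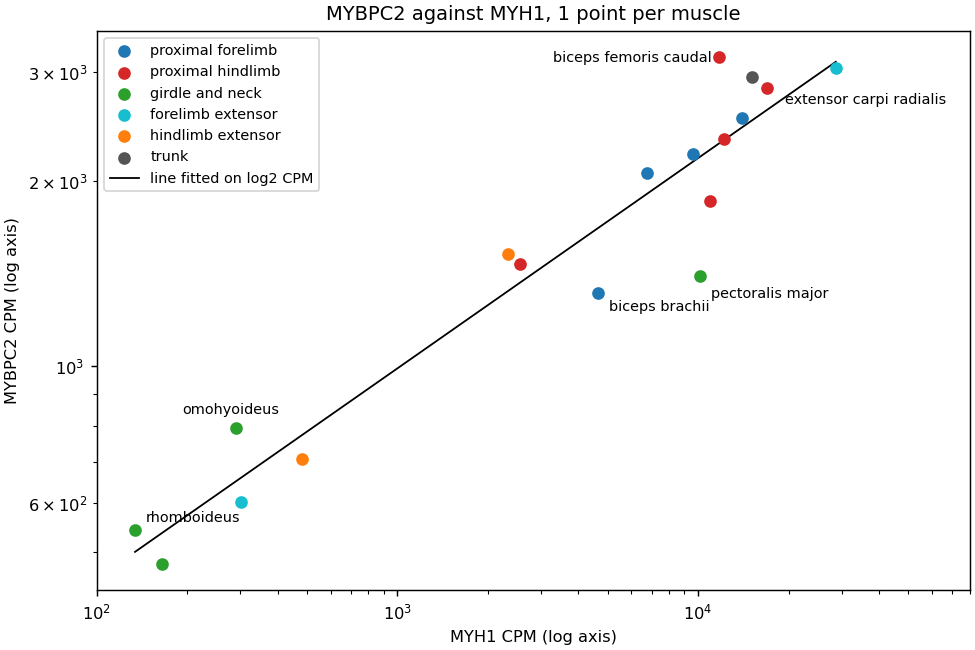
MYBPC2 CPM against MYH1 CPM, both on log axes, with 1 point per muscle coloured by anatomical group and the line fitted to log2 CPM. The 5 muscles at the lower left have at most 792 CPM of MYBPC2, and the 13 at the upper right have at least 1314 CPM.

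The pectoralis major and the caudal biceps femoris stood farthest from this line. The pectoralis major had 1399 CPM of MYBPC2, with a log2 residual of -0.64, and lay below the line. The biceps brachii (-0.35) and the middle biceps femoris (-0.28) were below it as well. The caudal biceps femoris lay 0.47 log2 above the line and the omohyoideus 0.28 log2 above it. The middle and caudal parts of the biceps femoris therefore stood on opposite sides of the line at nearly equal MYH1.

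MYBPC2 was related to MYH7 in the opposite direction and more loosely. Over the 18 muscles r was -0.59 and rho was -0.52, and MYH1 with MYH7 gave an r of -0.59 and a rho of -0.48. Neither relation was seen in the ranks of the 13 muscles above the step in MYH1. There r was -0.17 and rho 0.01 for MYBPC2 with MYH7, and r was -0.18 and rho 0.02 for MYH1 with MYH7. These 13 muscles were set apart by their MYH1 after the data were seen. The cut also left out the trapezius and rhomboideus, the muscles with the most MYH7. It narrowed the range of both heavy chains, so these values cannot show that the relations are absent there. Above the step, the muscle with the most MYH1, the extensor carpi radialis, had the least MYH7, but the longissimus and supraspinatus were high in both.

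The order of MYBPC2 relative to MYH1 and MYH7 depended on whether MYH7 was counted. Reads of other heavy chains, such as MYH2, are in neither divisor. For each 100 MYH1 reads there were 405 MYBPC2 reads in the rhomboideus, 290 in the trapezius, 273 in the omohyoideus and 200.2 in the extensor digitorum communis, against 13.8 in the pectoralis major and 10.6 in the extensor carpi radialis. For each 100 reads of MYH1 and MYH7 together, the order was different. MYBPC2 was then lowest in the trapezius with 1.80 and the rhomboideus with 2.11, followed by the extensor digitorum communis with 3.86 and the extensor digitorum lateralis with 5.28. It was highest in the gluteus superficialis with 23.2 and the extensor digitorum longus with 20.0. The extensor carpi radialis, with the most MYH1, stood in the middle with 10.3. The muscles with the fewest MYBPC2 reads per read of both heavy chains were those with the most MYH7, which makes up most of the divisor there. Their MYBPC2 was low as well, at 477 to 708 CPM. At nearly the same sum of both heavy chains, 26206 against 26448 CPM, the longissimus had 11.2 MYBPC2 reads and the trapezius 1.80. The part of divisor and numerator in these quotients was not tested. The gluteus superficialis and extensor digitorum longus, which stood highest, had a low sum of both heavy chains, but the omohyoideus, whose sum was also low, had only 9.03.

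**Figure D4:**
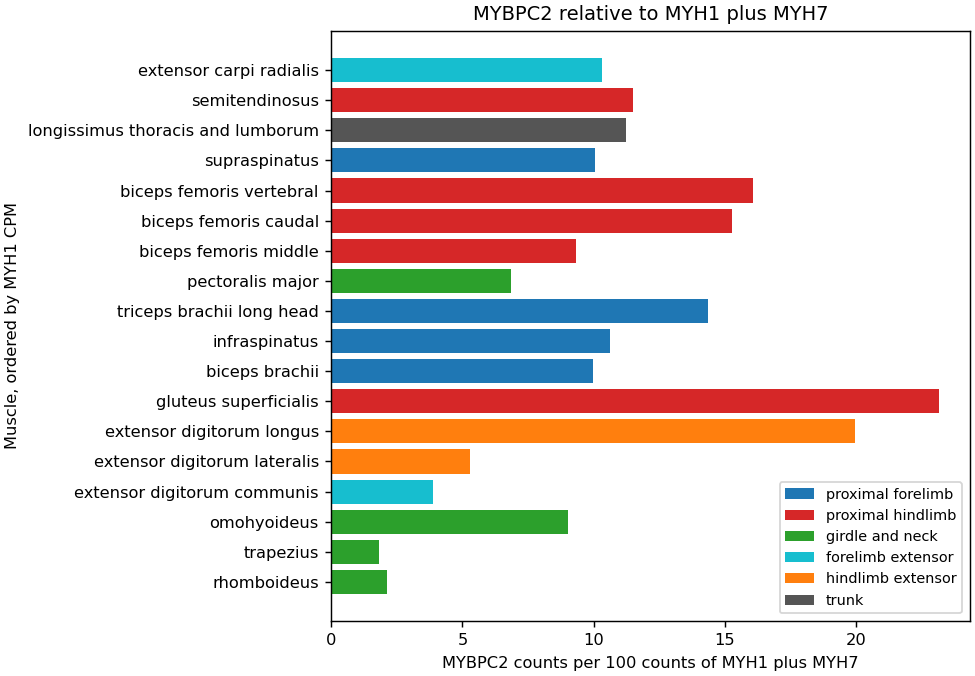
MYBPC2 reads per 100 reads of MYH1 and MYH7 together (x axis), with 1 bar per muscle in the order of MYH1 CPM (y axis), coloured by anatomical group. Muscles below the step in MYH1 have between 1.80 and 9.03 MYBPC2 reads. The gluteus superficialis and extensor digitorum longus stand highest with 23.2 and 20.0.

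Genes with a similar pattern were ranked by Spearman's rho over the 18 muscles among 10471 genes with a mean of at least 1 CPM. MYBPC2 took place 2 of the genes most like MYH1, and MYH1 took place 5 of those most like MYBPC2. The median gene had a rho of 0.04 with each of MYH1 and MYBPC2, and 5% of genes had a rho above 0.57 with MYH1 and above 0.60 with MYBPC2. Place 1 for MYH1 was held by ENSECAG00000025060, a gene of low level with 2.19 to 27.0 CPM and a rho of 0.92. Place 3 was held by ENSECAG00000018290, with a rho of 0.91, which was also in place 4 for MYBPC2 with 0.92. Place 1 for MYBPC2 was ENSECAG00000012221, with a rho of 0.92 and 10.7 to 23.2 CPM, tied in rho with the gene in place 2. MYH7 was most closely followed by ENSECAG00000016776, with a rho of 0.96 and 234 to 1769 CPM, and by ENSECAG00000014239, with 0.92. These identifiers have no name in the table, and MYH7 was in none of the lists of the 5 genes most like MYH1 or MYBPC2.

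Library properties were compared with these levels. Across the 18 libraries the TMM factor had an r of -0.34 with log2 CPM of MYH1, -0.03 with MYH7 and -0.26 with MYBPC2. The total count had an r of 0.30, -0.11 and 0.16 in the same order, and the share of counts taken by the most abundant gene had an r of 0.31, -0.32 and 0.16. The part of these properties in the relations between the genes was not tested.

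The first anatomical comparison asked whether proximal muscles of the hindlimb and forelimb differ. MYH1 was 10892 ± 5213 CPM (SD, n = 5) in the hindlimb and 8772 ± 4059.6 CPM (SD, n = 4) in the forelimb. MYH7 was 6322 ± 3089 against 9522 ± 3037 CPM, and MYBPC2 was 2334 ± 699 against 2030.1 ± 516 CPM. The groups overlapped in all 3 genes, while 4.65% of the genes tested did not overlap. None of the 3 genes was called at an adjusted p below 0.05, where 0.0135% of the 14770 genes tested were called. Log2FC was 0.31 for MYH1 (SE 1.14, adjusted p 0.930), -0.59 for MYH7 (SE 0.62, adjusted p 0.717) and 0.20 for MYBPC2 (SE 0.43, adjusted p 0.877) by edgeR's quasi-likelihood test with Benjamini-Hochberg adjustment. By unadjusted p none was below 0.05 either. Without the caudal biceps femoris edgeR called 24 genes in place of 2. DESeq2 called 0.718% of the genes tested, and no member.

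The 5 proximal hindlimb muscles spanned 6.61-fold in MYH1 and 3.89-fold in MYH7, against 3.01-fold and 2.20-fold over the 4 of the forelimb. The wider range in MYH1 rested on the gluteus superficialis. Without it the hindlimb muscles lay between 10947 and 16961 CPM, a narrower span than 4658 to 14032 CPM in the forelimb. In MYH7 both ends of the hindlimb range were parts of the biceps femoris, the vertebral (2320.4 CPM) and the caudal (9024 CPM). The next lowest hindlimb value was 3749 CPM, in the gluteus superficialis. In the forelimb, the supraspinatus exceeded the biceps brachii 3.01-fold in MYH1 and 1.93-fold in MYBPC2. In the hindlimb, the semitendinosus exceeded the gluteus superficialis 6.61-fold in MYH1 and 1.94-fold in MYBPC2, and also had 2.04-fold more MYH7. The mean log2 ratio of MYH1 to MYH7 was 0.74 ± 1.11 (SD, n = 5) in the hindlimb and -0.18 ± 0.84 (SD, n = 4) in the forelimb. The ratio was thus 1.88-fold higher in the hindlimb, and by a two-sided exact permutation test p was 0.238, with 0.239 after adjustment over the 3 comparisons of the ratio. The smallest p this comparison allows is 0.00794. It treats the 3 parts of the biceps femoris as independent muscles. With the parts summed, the ratio was 1.59-fold higher in the hindlimb (n = 3 against n = 4). The p of the exact permutation test was then 0.314, and the smallest possible was 0.0286.

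The second comparison set the 4 extensors of both limbs, muscles that run to the carpus and digits, against the 9 proximal limb muscles. The extensors did not behave as 1 group. The extensor carpi radialis had 95.5-fold more MYH1, 5.07-fold more MYBPC2 and 17.4-fold less MYH7 than the extensor digitorum communis of the same limb, and its ratio was 1658-fold higher. Between the hindlimb extensors the same directions were seen with smaller sizes. The extensor digitorum longus had 4.84-fold more MYH1, 2.15-fold more MYBPC2 and 2.45-fold less MYH7 than the extensor digitorum lateralis. For MYH1, 3 extensors lay below all proximal muscles and the extensor carpi radialis above all of them.

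The means of the groups lay within this spread. MYH1 was 7956 ± 13866 CPM in the extensors (SD, n = 4) and 9949.8 ± 4584 CPM in the proximal muscles (SD, n = 9). MYH7 was 8592 ± 6685 against 7744 ± 3328 CPM, and MYBPC2 was 1469.8 ± 1131 against 2199 ± 608 CPM. All 3 genes overlapped between the groups, which 5.89% of the genes tested did not. By edgeR's quasi-likelihood test with Benjamini-Hochberg adjustment, log2FC was -1.11 for MYH1 (SE 1.08, adjusted p 0.508), 0.14 for MYH7 (SE 0.55, adjusted p 0.883) and -0.61 for MYBPC2 (SE 0.40, adjusted p 0.307). None of the 3 genes was called in a comparison that called 15.3% of the genes tested (2257 genes, or 626 without the extensor digitorum lateralis), and none had an unadjusted p below 0.05. DESeq2 called 18.9% of the genes tested, and no member.

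The values for MYH1 and MYBPC2 turned on the extensor carpi radialis. Leaving out any extensor leaves 1 extensor in its limb, and the spread in that edgeR fit then comes from the other groups. Without it, log2FC became -3.91 for MYH1, with an adjusted p of 0.0841 in edgeR's quasi-likelihood test, and -1.41 for MYBPC2, with an adjusted p of 0.0336. The latter was the only call of a member in any setting, and the adjusted p for MYBPC2 lay between 0.0336 and 0.691 over its alternatives. For MYH7 the direction turned to -1.46 without the extensor digitorum communis and to -0.25 without the extensor digitorum lateralis. The ratio was 3.93-fold lower in the extensors, a difference of -1.97 log2 with a p of 0.239 by a two-sided exact permutation test (0.239 adjusted over 3 comparisons, smallest p possible 0.0014). Without the extensor carpi radialis the difference was -4.20 log2, and the two-sided exact permutation p was 0.00455, the smallest that remaining muscles allow. With all muscles kept, the difference of medians was -3.29 log2, with a two-sided exact permutation p of 0.0140. These tests treat the parts of the biceps femoris as independent muscles. With the parts summed, the difference of means was -1.75 log2, with an exact permutation p of 0.327. Without the extensor digitorum communis the difference was -0.63 log2 and without the extensor digitorum lateralis -0.94 log2, with p of 0.655 and 0.495 by the same two-sided exact permutation test.

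Whether the extensor difference was alike in hindlimb and forelimb was tested as an interaction. The difference in the hindlimb minus that in the forelimb was -3.68 log2 for MYH1 (SE 2.15), 0.76 for MYH7 (SE 1.11) and -0.91 for MYBPC2 (SE 0.77). No member was called and 0% of the genes tested were called by edgeR's quasi-likelihood test, in which 369 genes had an unadjusted p below 0.05. The unadjusted p was 0.104 for MYH1, 0.503 for MYH7 and 0.251 for MYBPC2 in this model across all genes. DESeq2 called 0 genes as well, with an unadjusted p of 0.0255 for MYH1 across all genes. These values turned direction without the extensor carpi radialis, to 1.91 for MYH1, -0.16 for MYH7 and 0.69 for MYBPC2. Without the extensor digitorum communis MYH7 gave 3.98, and without the extensor digitorum lateralis it gave -0.02.

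The third comparison set the 4 girdle and neck muscles, which join the limb to the trunk or run along the neck, against the 4 proximal forelimb muscles. The rhomboideus and trapezius were nearly alike, differing 1.23-fold in MYH1, 1.02-fold in MYH7 and 1.14-fold in MYBPC2, and both were dominated by MYH7. The omohyoideus, a strap muscle of the neck, had 3.10-fold less MYH7 than the trapezius and 1.77-fold more MYH1. The pectoralis major, so named in its tissue label but called pectoralis ascendens in the study's drawing of the muscles, stood apart from the other three. It had 75.6-fold more MYH1, 2.58-fold more MYBPC2 and 2.48-fold less MYH7 than the rhomboideus, and its ratio of 0.980 lay within the range of the proximal forelimb muscles.

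In this comparison MYH1 was 2680.1 ± 4968 CPM in the girdle and neck and 8772 ± 4059.6 CPM in the proximal forelimb (SD, n = 4 each). MYH7 was 17691 ± 9592 against 9522 ± 3037 CPM, and MYBPC2 was 803 ± 420.1 against 2030.1 ± 516 CPM. In each of MYH1, MYBPC2 and the ratio, 3 of the 4 girdle and neck muscles lay below all 4 proximal forelimb muscles, and the pectoralis major lay among the latter. No member was free of overlap, as 5.8% of the genes tested were. By edgeR's quasi-likelihood test with Benjamini-Hochberg adjustment, log2FC was -1.71 for MYH1 (SE 1.23, adjusted p 0.684), 0.89 for MYH7 (SE 0.66, adjusted p 0.692) and -1.34 for MYBPC2 (SE 0.46, adjusted p 0.512). MYBPC2 had an unadjusted p of 0.00944 across all genes.

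No member and 0% of the genes tested were called in the girdle comparison by edgeR, in which 1343 genes had an unadjusted p below 0.05. DESeq2 called 16 genes (0.108%), and no member was among them. Its p for MYBPC2 was 0.00133 before and 0.207 after Benjamini-Hochberg adjustment. Without the pectoralis major, log2FC for MYH1 was -5.48, with an adjusted p of 0.166 by edgeR's quasi-likelihood test. The ratio was 27.4-fold lower in the girdle and neck, a difference of -4.77 log2, with a p of 0.0857 by a two-sided exact permutation test (0.239 adjusted over 3 comparisons, smallest p possible 0.0286). Without the pectoralis major the difference was -6.41 log2 and the exact permutation p was 0.0286, again the smallest possible.

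**Figure D5:**
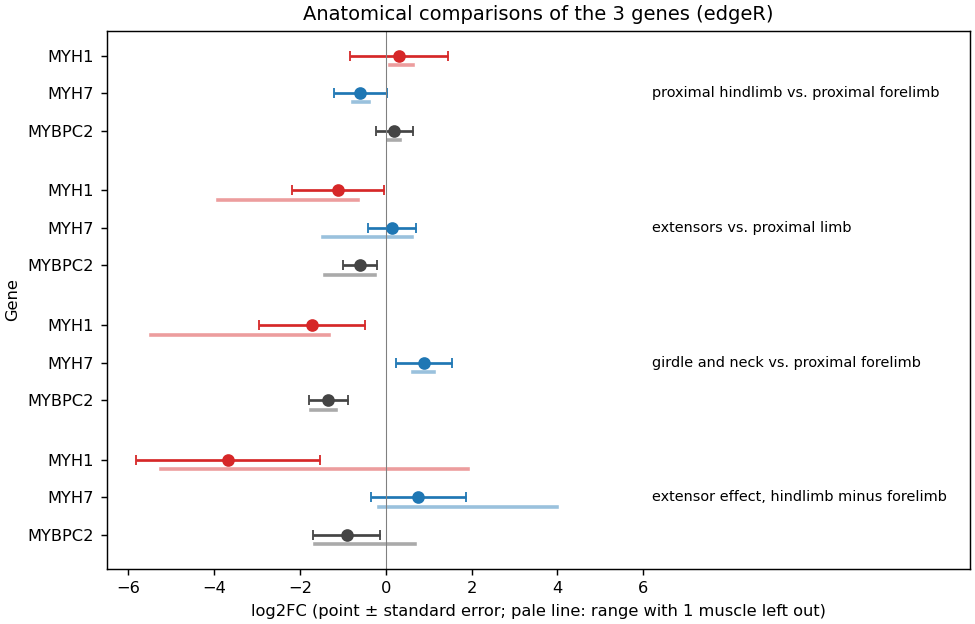
Log2FC of MYH1, MYH7 and MYBPC2 in the 3 anatomical comparisons and the interaction, as points with the standard error of edgeR's fit, and pale lines for the range when 1 muscle is left out. The standard error of MYH1 between hindlimb and forelimb, 1.14, exceeds its log2FC of 0.31, and the pale lines of the interaction cross 0 in all 3 genes.

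The single trunk muscle was not tested against other groups. The longissimus had 15144 CPM of MYH1, 11062 CPM of MYH7 and 2945 CPM of MYBPC2, each inside the range of the proximal limb muscles. Its ratio of 1.37 lay closest to that of the caudal biceps femoris.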

How the data were processed

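RNA from 18 muscles of 1 horse was sequenced with 1 library each, counting the 3 parts of the biceps femoris as muscles. Per the study's methods, ribosomal RNA was depleted, paired reads were filtered with NGSQCToolkit and mapped with STAR 2.5.2b to EquCab2 in a 2-pass run. The authors deposited raw counts per Ensembl gene for 25239 genes, without normalization. The strand setting of the counting is not given in the sources used here. No column was left out.

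Counts were fitted with edgeR 4.0.16 in R 4.3.3 over all 18 muscles and 6 anatomical groups from the tissue labels. Genes were kept by filterByExpr (14770), scaled by TMM, and tested with glmQLFit and glmQLFTest and Benjamini-Hochberg adjustment over all genes tested, called below 0.05. Extensors and proximal muscles were averaged over both limbs. The fitted biological coefficient of variation was 1.04 for MYH1, 0.60 for MYH7 and 0.43 for MYBPC2, against 0.27 in common, with 12 residual degrees of freedom. Ratios of counts were compared on a log2 scale by exact permutation tests in Python 3.11.15 with scipy 1.17.1. Alternatives were DESeq2 1.42.0, other scalings and filters, fits of only the groups compared, the biceps femoris summed, and each muscle left out in turn. The code was tested on simulated data.

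The table pairs no identifier with a name. The 3 names follow from counts that the study shows by gene name. They and all lists were chosen with earlier results of these data known. By the rule for named genes, the 3 members were reported in full, with up to 2 unnamed identifiers of the 5 most like each member. Lists of other thick filament genes, fast and slow partners, cell type markers and promoter motifs are not analysed here, since 0 identifiers matched the RefSeq table. The study's own clusters were not used as groups, since the labels do not give them and they were formed from the same counts.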

Additional observations from a re-analysis of the deposited data

Results flagged for a closer look

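MYH1 in the gluteus superficialis was far below the other proximal hindlimb muscles. Its log2 CPM was 11.32, and the gap to the next muscle took up 0.768 of the range of the 5 muscles, more than Dixon's test allows at 95%. Of these 5 muscles, 3 were parts of the biceps femoris, 1.12-fold apart in MYH1, which the test treats as independent. The gap was found in 1 of 25 such checks, and chance gives one in about 5% of groups of independent values. MYH7 was also low in this muscle, with 3749 CPM, and its MYBPC2 of 1464 CPM lay 0.10 log2 above the line on MYH1. Without the gluteus superficialis, log2FC of MYH1 between hindlimb and forelimb was 0.56.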

How the results depend on the processing

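Of 136 values recomputed under alternatives other than leaving out a muscle, 118 kept their direction, their side of the threshold and, for counts and correlations, their size. The genes called for extensors fell to 828 with total counts in place of TMM, with 266 higher and 562 lower against 1288 and 969. The girdle comparison called 16 genes with DESeq2 and 1 with only its groups fitted. The hindlimb comparison called 106 with DESeq2, 0 with at least 10 counts required in every library and 10 with only its groups fitted. With total counts the median log2FC of all genes moved to 0.15 (hindlimb), -0.18 (extensors), 0.14 (girdle) and -0.28 (interaction). The extensor difference in the ratio was -3.29 as a difference of medians (exact permutation p 0.0140). The cause of these changes was not tested.

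The Spearman correlation of MYBPC2 with MYH1 was 0.874 with total counts, 0.872 with library sizes without the 3 genes, 0.938 with the biceps femoris summed, 0.882 without the rhomboideus and trapezius, and 0.797 above the step in MYH1, a subset chosen after seeing the data. The correlation of MYBPC2 with MYH7 was -0.618 with the biceps femoris summed and 0.011 above the step. That of MYH1 with MYH7 was -0.624 with total counts, -0.575 without the 3 genes, -0.332 without the extensor carpi radialis and vertebral biceps femoris, and 0.0165 above the step.

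Leaving out 1 muscle at a time gave these ranges. The hindlimb log2FC was 0.10 to 0.63 for MYH1, -0.77 to -0.40 for MYH7 and 0.04 to 0.33 for MYBPC2. The extensor log2FC was -3.91 to -0.64, -1.46 to 0.60 and -1.41 to -0.25 in the same order. The girdle values were -5.48 to -1.32, 0.64 to 1.13 and -1.75 to -1.16. The interaction was -5.23 to 1.91, -0.16 to 3.98 and -1.64 to 0.69. The log2 ratio differed by 0.50 to 1.23 (hindlimb), -4.20 to -0.63 (extensors) and -6.41 to -3.90 (girdle). The Spearman correlation was 0.90 to 0.94 for MYBPC2 with MYH1, -0.60 to -0.43 for MYBPC2 with MYH7 and -0.54 to -0.38 for MYH1 with MYH7. Genes called numbered 626 (without the extensor digitorum lateralis) to 2435 for extensors, 0 to 3 for girdle, 2 to 24 (without the caudal biceps femoris) for hindlimb and 0 to 1 for the interaction.

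No paired analysis was possible because the libraries are different muscles or parts of the biceps femoris and the replicate numbers only name samples. With 1 library per muscle or part, technical error cannot be told apart from differences between muscles, and with 1 horse nothing is known of other horses. Depth was not the limit for these abundant genes.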
